A study of Mus musculus with 8 samples.

Results

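Ribosomal protein pseudogenes are intronless copies of ribosomal protein genes, and this account covers 61 of them in mouse rib chondrocytes. The genes were chosen by name and level: the symbol begins with Rpl or Rps and ends with -ps and a number or none, and the mean over all 8 libraries is at least 1 TPM (transcripts scaled to a fixed library total after division by transcript length, here as the authors deposited them). Of 265 such symbols in the deposited table, 51 were listed at 0 in every library, 153 were above 0 with a mean under 1 TPM, and 61 met the rule. The whole table holds 52325 gene identifiers. The 61 genes derive from 36 distinct parent genes, 35 of them copying proteins of the large ribosomal subunit and 26 copying proteins of the small subunit. Because mean TPM chose the genes, their levels are given as a description without a test.

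The study compared costal chondrocytes, the cartilage cells of the ribs, from 4 wild-type control mice (WT) and 4 Mir324-null mice, which lack the gene of the microRNA miR-324. Rib cages of individual mice were digested with collagenase and total RNA of the released cells was sequenced from low-input libraries, so each library is 1 animal and no group was pooled. No animal was treated, and the labels name no age, sex, strain or design of the null allele. The question was what loss of miR-324 changes in these cells. All 8 listed chondrocyte markers were detected, with a summed level of 38115 to 52094 TPM, and Col2a1, the main cartilage collagen gene, ranged from 31939.5 to 43700.5 TPM. In the null libraries endothelial markers summed to 17.0 to 21.6 TPM against 6.93 to 17.1 TPM in WT, and fibroblast markers to 579 to 1427 TPM against 386 to 2234 TPM. Erythroid markers summed to 67.3 to 644 TPM over all libraries, skeletal muscle markers to 40.5 to 107 TPM, osteoblast markers to 10.3 to 28.9 TPM, macrophage markers to 15.1 to 25.1 TPM, and lymphocyte markers to 0.237 to 1.72 TPM. Only 1 of 4 skeletal muscle and 1 of 4 macrophage markers averaged 1 TPM or more, and 0 of 3 lymphocyte markers did. Null replicate 3 stood apart. It had 13229 genes at 1 TPM or more against 13683 to 14477 in the others, and its mean Spearman correlation with the other libraries over genes was 0.864 against 0.895 to 0.914. It also held the lowest chondrocyte and osteoblast sums and the highest endothelial, macrophage and lymphocyte sums given above. Its values are named beside the results below, and the genotype differences of named genes are also given without it. In bulk RNA, fewer cells of a type and less RNA per cell cannot be told apart.

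Each ribosomal protein sits at a fixed place in the large or the small subunit of the ribosome, and cells make all of them in large, matched amounts. Their abundant, short mRNAs are frequent templates for reverse transcription, and the DNA copies that were pasted back into the genome, called processed pseudogenes, have no introns and usually no promoter of their own. A young copy can still be nearly identical to the mRNA of its parent, in which case a short read from one also matches the other, and the program named in the submitters' processing notes, kallisto, divides such reads among the matching transcripts by estimation.

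The sequences below show how close the copies are to their parents. Rpl38-ps2, the most abundant of the 61 genes, is 213 bases long and holds the whole coding sequence of Rpl38, including the stop codon, without a single difference. It lies at chr6:140746960-140747172 on the minus strand (GRCm38, GENCODE M21 transcripts, as all sequences here), opposite an intron of Gm11077.
Rpl38-ps2: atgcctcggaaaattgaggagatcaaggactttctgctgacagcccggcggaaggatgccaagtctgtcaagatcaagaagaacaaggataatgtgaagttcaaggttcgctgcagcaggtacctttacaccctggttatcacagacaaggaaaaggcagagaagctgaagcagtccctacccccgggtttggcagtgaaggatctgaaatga

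The next sequences are 60-base stretches of genes whose level differed widely between libraries, chosen around a base at which the copy differs from its parent, with that base in capitals in both. In each difference given here the parent's base comes first, then the position counted from 1 at the 5′ end of the stretch, then the base of the pseudogene. Rps18-ps3 (chr8:107263039-107263098, minus strand) differs from bases 151 to 210 of the Rps18 coding sequence by G31C.
Rps18-ps3: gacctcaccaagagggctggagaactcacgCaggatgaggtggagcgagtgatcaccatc
Rps18: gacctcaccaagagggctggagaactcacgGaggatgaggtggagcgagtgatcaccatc
Rpl3-ps1 (chrX:13202598-13202657, plus strand) differs from bases 27 to 86 of the Rpl3 coding sequence by C31A.
Rpl3-ps1: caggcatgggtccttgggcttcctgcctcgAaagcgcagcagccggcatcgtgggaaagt
Rpl3: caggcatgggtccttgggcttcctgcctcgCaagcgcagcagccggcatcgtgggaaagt
Rpsa-ps10 (chr3:150073299-150073358, minus strand) differs from bases 185 to 244 of the Rpsa coding sequence by T26C and C35T.
Rpsa-ps10: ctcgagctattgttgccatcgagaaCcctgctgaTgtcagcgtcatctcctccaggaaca
Rpsa: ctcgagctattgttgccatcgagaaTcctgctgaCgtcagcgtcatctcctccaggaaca
Rpl30-ps9 (chrX:105278860-105278919, minus strand) differs from bases 66 to 125 of the Rpl30 coding sequence by G31A.
Rpl30-ps9: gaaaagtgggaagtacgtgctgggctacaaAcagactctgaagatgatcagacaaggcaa
Rpl30: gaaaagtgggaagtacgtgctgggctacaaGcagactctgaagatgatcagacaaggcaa
Rps27a-ps2 (chr9:83410004-83410063, plus strand) differs from bases 345 to 404 of the Rps27a coding sequence by A31G.
Rps27a-ps2: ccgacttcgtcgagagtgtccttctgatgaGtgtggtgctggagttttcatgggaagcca
Rps27a: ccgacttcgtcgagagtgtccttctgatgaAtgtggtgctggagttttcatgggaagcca
Rpl10-ps1 (chr2:105554786-105554845, minus strand) has no difference from its parent anywhere in its 645 bases. Its first 60 bases are therefore those of the Rpl10 coding sequence as well.
Rpl10-ps1: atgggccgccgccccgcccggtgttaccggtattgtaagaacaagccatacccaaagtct

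All 61 pseudogenes are annotated with a single exon, whereas their parents have several. Over the bases that aligned to the parent transcript the median identity was 99.4%, with a range of 87.5 to 100%, and all 61 models were shorter than the parent's. GENCODE M21 calls 54 of them processed pseudogenes, 4 transcribed processed pseudogenes and 3 protein-coding genes, these last being Rps12-ps3, Rpl10-ps3 and Rpl36a-ps1. The reading frame ended where the parent's does in 31 and ran without a stop to the end of the model in 13. It met an earlier stop in 12, and in 5 the start codon was not aligned. Of the 61, 27 overlapped another annotated gene, and none of those overlaps was with an exon on the same strand.

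How far a copy can be told from other transcripts was measured with 31-base words, the word length kallisto uses unless told otherwise. A median of 81.9% of a pseudogene's words also occurred in transcripts of its parent, and 20 of the 61 had no word that is absent from all other genes. Levels and likeness to the parent went together across the 61 genes. Among the 26 genes at 100 TPM or more, 23 were at least 99% identical to the parent, 11 held the parent's whole coding sequence without a difference, and 16 had no word of their own. Among the 26 genes at 1 to 10 TPM, 8 were at least 99% identical, 0 held the whole coding sequence without a difference, and 3 had no word of their own. The Spearman correlation of mean TPM with identity was 0.64, with the share of words in the parent 0.67, and with the number of words of its own -0.62. It was 0.06 with transcript length and -0.08 with the parent's mean TPM. These are descriptions across 61 genes that share the same 8 libraries and, in families, a parent.

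**Figure D1:**
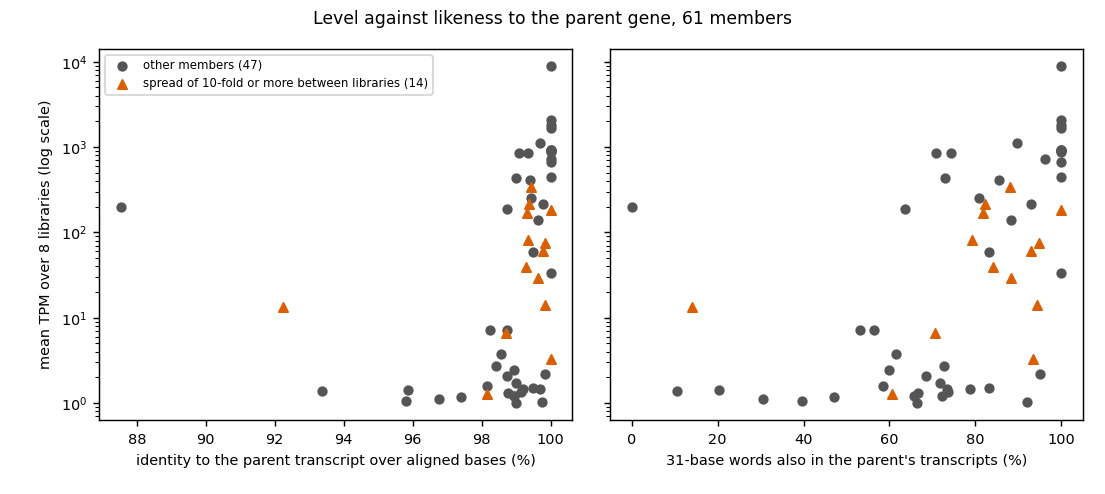
Mean TPM over 8 libraries (log scale) of each of the 61 pseudogenes against its percent identity to the parent transcript (left) and the percent of its 31-base words that also occur in the parent (right). Circles are 47 genes, and triangles are the 14 whose level differed at least 10-fold between libraries on the TPM + 1 scale. The genes at 100 TPM or more crowd at the right edge of the left panel, apart from Rpl36a-ps3 at 87.5% identity. On the right they spread further, from Rpl36a-ps3 at 0% and Rps15a-ps5 at 63.6% up to 100%.

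The exception to closeness with the named parent was Rpl36a-ps3, at a mean of 196 TPM. It was 87.5% identical to Rpl36a and shared 0 words with it, but 89.3% of its words occurred in Rpl36al, a separate gene for a closely related protein. Rpl36al itself averaged 108 TPM.

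The level of the 61 pseudogenes was concentrated in few genes. Rpl38-ps2 alone held 33.1% of their summed mean level, the top 5 held 58.0% and the top 10 held 74.9%. In all, 5 genes averaged 1000 TPM or more, 26 averaged 100 or more, 9 lay between 10 and 100, and 26 were under 10. At the low end 22 genes were listed at 0 in at least 1 library. Close inside the limit of 1 TPM were Rps12-ps10 at 1.0 and Rpl7a-ps11 at 1.03 TPM, and close outside were Rpl31-ps10 at 0.865 and Rps10-ps2 at 0.844 TPM.

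Rpl38-ps2 copies the gene of a small large-subunit protein that mouse mutants tie to the translation of homeobox mRNAs. Its level was 8348, 8875, 8014 and 8756 TPM in the WT libraries and 8277, 8759.9, 11740.3 and 8117 TPM in the null ones, replicates 1 to 4 in order here and below. Null replicate 3 was the highest, and the other null libraries lay within the WT range. Rpl38 itself ranged from 333 to 521 TPM, so that the pseudogene's mean of 8861 TPM was 23.1 times its parent's. Rpl38-ps2 has 0 words of its own and shares 100% of its words with Rpl38. This ratio therefore rests on how shared reads were divided. The share of Rpl38-ps2 and its lesser copy in the sum of parent and copies ran only from 95.7 to 96.1% over the 8 libraries.

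Next in level was Rpl36a-ps2, a full copy of the coding sequence of Rpl36a, a large-subunit protein gene. It measured 2105, 2147, 1865 and 2057 TPM in WT and 1931, 2107, 2536 and 1966 TPM in null, 9.53 times its parent on average. Rpl31-ps8 copies another large-subunit protein gene and measured 1713, 1735, 1459 and 1712 TPM in WT and 1760.4, 1761, 2645 and 1699 TPM in null. Both were highest in null replicate 3 and otherwise had overlapping groups. Rps23-ps1, a copy of a small-subunit protein gene whose product lies near the decoding centre, averaged 1668 TPM and was 4.35 times its parent. Rpl35a-ps2, Rpl28-ps1, Rps13-ps2, Rps12-ps3, Rps16-ps2 and Rps6-ps4 complete the 10 highest, with means from 872 to 1102 TPM. Rps6 codes for the small-subunit protein that S6 kinases phosphorylate. Over the coding bases that aligned, Rpl35a-ps2 had 1 difference from its parent and the other 9 of these 10 had none, although Rps23-ps1 and Rps13-ps2 lack the very end of the parent's coding sequence. In total 13 of the 61 pseudogenes averaged more than their parent, among them Rps12-ps3 at 10.3 times and Rpl10a-ps1 at 6.18 times the parent's mean. Rpl10a-ps1 and the 10 highest copies have no word of their own. Their ratios to the parent can therefore depend on how shared reads were divided.

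**Figure D2:**
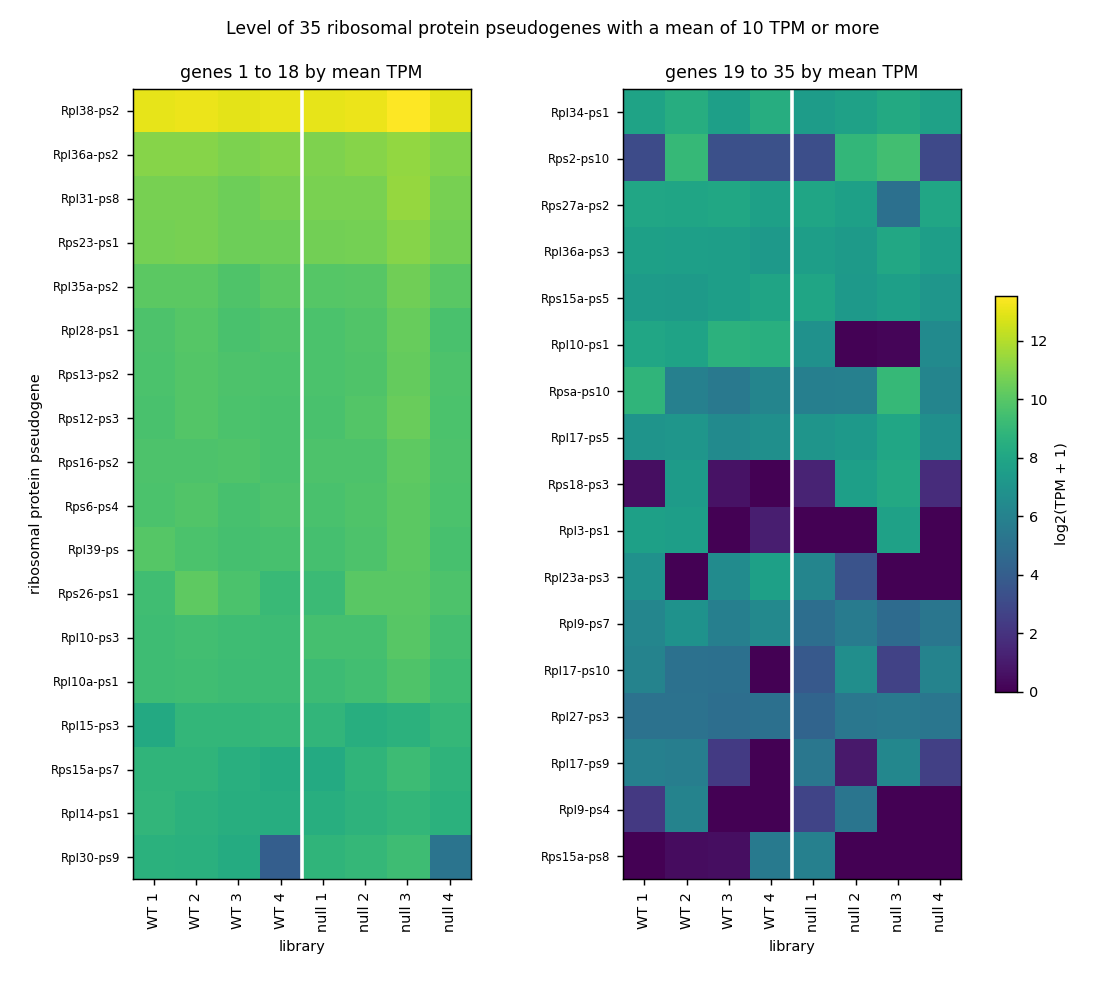
Level of the 35 pseudogenes with a mean of 10 TPM or more on the log2(TPM + 1) scale (colour) in 4 WT and 4 null libraries (columns, white line between the genotypes), ordered by mean TPM from the top left. The upper rows are nearly even across libraries, with null replicate 3 brightest in many, while Rpl30-ps9, Rps2-ps10, Rpl10-ps1, Rps18-ps3, Rpl3-ps1 and Rpl23a-ps3 change colour sharply from one library to the next.

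The parents with the most copies in the list were Rps12 and Rps15a, both genes of small-subunit proteins, with 6 copies each. Levels within these families were far from even. Rps12-ps3 averaged 918 TPM, whereas Rps12-ps4, Rps12-ps24, Rps12-ps9, Rps12-ps26 and Rps12-ps10 averaged 1.0 to 3.31 TPM, and Rps12 itself averaged 88.8 TPM. A further copy named Rps12l1, which shares 79.5% of the words of Rps12-ps3, averaged 2828 TPM. In the Rps15a family, Rps15a-ps7 averaged 429.5 TPM and Rps15a-ps5 186 TPM beside 7219 TPM for the parent. Rps15a-ps8, Rps15a-ps3, Rps15a-ps6 and Rps15a-ps4 averaged 1.19 to 13.4 TPM.

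Parents with 3 copies each, tied for the next place, were Rpl10, Rpl17, Rpl31, Rpl36 and Rpl36a, all genes of large-subunit proteins. In each family 1 copy led. Rpl10-ps3 averaged 727 TPM with Rpl10-ps1 at 184 and Rpl10-ps6 at 2.17 TPM. Rpl17-ps5 averaged 138 TPM with Rpl17-ps10 at 39.0 and Rpl17-ps9 at 29.4 TPM. Rpl31-ps11 and Rpl31-ps16 averaged 2.44 and 1.21 TPM beside the 1811 TPM of Rpl31-ps8. Rpl36-ps3, Rpl36-ps2 and Rpl36-ps10 averaged 7.19, 1.45 and 1.11 TPM, all far below the 665.5 TPM of Rpl36. In the Rpl36a family the lowest was Rpl36a-ps1 at 2.71 TPM.

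Most abundant copies varied little between animals, but 14 of the 61 reached 10 TPM somewhere and differed at least 10-fold, on the TPM + 1 scale, between their highest and lowest library. This limit was set after the values were seen. The 14 were Rpl30-ps9, Rps2-ps10, Rpl10-ps1, Rpsa-ps10, Rps18-ps3, Rpl3-ps1, Rpl23a-ps3, Rpl17-ps10, Rpl17-ps9, Rpl9-ps4, Rps15a-ps8, Rpl15-ps2, Rps12-ps4 and Rpl38-ps1. The WT and null values overlapped in all of them but Rpl10-ps1. In Rps2-ps10, Rps18-ps3, Rpl3-ps1, Rpsa-ps10 and Rpl30-ps9, described next, the parent or another copy was lower in libraries where the pseudogene was high. Rpl30-ps9 in null replicate 3 was an exception, with Rpl30 also at its highest there.

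Rps2-ps10 copies the gene of a small-subunit protein. It measured 7.59, 529, 8.76 and 9.13 TPM in WT and 8.5, 487, 678 and 6.94 TPM in null. WT replicate 2, null replicate 2 and null replicate 3 were high, the other 5 libraries were under 10 TPM, and the genotypes overlapped. Rps2 was lowest in those same 3 libraries, with 1126, 526, 1042 and 1062 TPM in WT and 1074, 553, 868 and 1083 TPM in null. The sum of Rps2 and all its listed copies was 1043 to 1136 TPM in the 7 libraries other than null replicate 3, a 1.09-fold spread, against a 2.14-fold spread of Rps2 alone in those 7. The sum was 1549 TPM in null replicate 3.

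Rps18-ps3 was high in the same 3 libraries. It measured 0.411, 168, 0.591 and 0 TPM in WT and 1.56, 194, 283 and 2.23 TPM in null. The parent Rps18, a gene of a small-subunit head protein, was lowest in the same libraries, at 764 TPM in WT replicate 2, 772 in null replicate 2 and 961 in null replicate 3 against 1051 to 1137 TPM elsewhere. Gm10260, a gene that shares 77.9% of the words of Rps18-ps3, had the same pattern, with 353 to 413 TPM in those 3 libraries and 0 to 0.882 TPM in the other 5. The sum of Rps18-ps3 and its word-sharing genes was less even than that of Rps2, at 1344 TPM in WT replicate 2, 1319 in null replicate 2 and 1650.0 in null replicate 3, and at 1053 to 1138 TPM in the other 5.

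Rpl3-ps1 divided the libraries differently. Its parent Rpl3 codes for a large-subunit protein close to the peptidyl transferase centre. Rpl3-ps1 measured 205, 189, 0 and 1.18 TPM in WT and 0, 0, 210.1 and 0 TPM in null, so WT replicates 1 and 2 and null replicate 3 were high. Rpl3 measured 339, 316, 555 and 553 TPM in WT and 550.4, 503, 410.0 and 544 TPM in null, lowest in the 3 libraries where the copy was high. In the 7 libraries other than null replicate 3 the sum of parent and copies spread 1.10-fold and Rpl3 alone 1.76-fold.

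Rpsa-ps10 was high in WT replicate 1 and null replicate 3. It copies the gene of a small-subunit protein that is also known as a laminin receptor. Its level was 463, 57.9, 42.8 and 69.5 TPM in WT and 57.1, 58.2, 526 and 68.9 TPM in null. Rpsa was 901 TPM in WT replicate 1 and 1364 to 1536 TPM in the other 7 libraries, null replicate 3 being the next lowest.

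For Rpl30-ps9 the partner was not the parent. Rpl30 is a large-subunit protein gene, and its copy measured 395, 375, 313 and 15.5 TPM in WT and 466, 508, 635 and 36.3 TPM in null. WT replicate 4 and null replicate 4 were low. Rpl30 was 532 and 539 TPM in these 2 libraries, inside its range of 489 to 671 TPM. Gm12191, which holds 97.8% of the words of Rpl30-ps9, was at 1119 and 1059 TPM in these libraries, against 684 to 812 TPM in the others apart from null replicate 3 at 1058 TPM. The sum over Rpl30-ps9 and the genes sharing at least 50% of its words was 1593 to 1830.4 TPM in the 7 libraries other than null replicate 3. The sum of only Rpl30 and its copies with -ps symbols was less even. It spread 2.03-fold in those 7 libraries, against 1.22-fold for Rpl30 alone.

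Several smaller copies also differed widely between libraries. Rpl23a-ps3 measured 113, 1e-06, 91.1 and 206 TPM in WT and 69.5, 10.2, 0.00062 and 0 TPM in null. Rpl17-ps9 measured 57.7, 53.5, 3.96 and 0 TPM in WT and 39.5, 0.884, 74.9 and 4.88 TPM in null. Rpl15-ps2, which copies the gene of a large-subunit protein, was at 15.4 to 19.3 TPM in WT replicate 1, null replicate 2 and null replicate 3, and at 0.238 to 0.998 TPM in the other 5. Gm10020, with 70.5% of its words, was high in the same libraries, at 131 to 194 TPM, and was at 4.45 to 8.79 TPM elsewhere. Rpl15-ps3, with the same share of its words, was lowest in those libraries, at 295 to 407 TPM against 479.6 to 516 TPM. In the 7 libraries other than null replicate 3, the sum of the pseudogene and its word-sharing genes spread 1.17-fold for Rpl23a-ps3 and Rpl15-ps2, and Rpl23a and Rpl15 alone spread 1.28 and 1.24-fold. For Rpl17-ps9 the sum was no more even than the parent, with a 1.16-fold spread against 1.13-fold for Rpl17 alone. Summing only the parent and its copies with -ps symbols gave spreads of 1.18-fold for Rpl23a, 1.36-fold for Rpl15 and 1.19-fold for Rpl17. For Rpl15 and Rpl17 that is less even than the parent alone. Rps15a-ps8, 92.2% identical to its parent, had no gene sharing at least 50% of its words, and stood at 47.2 TPM in WT replicate 4, 58.8 TPM in null replicate 1 and 0 to 0.437 TPM in the other 6.

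**Figure D3:**
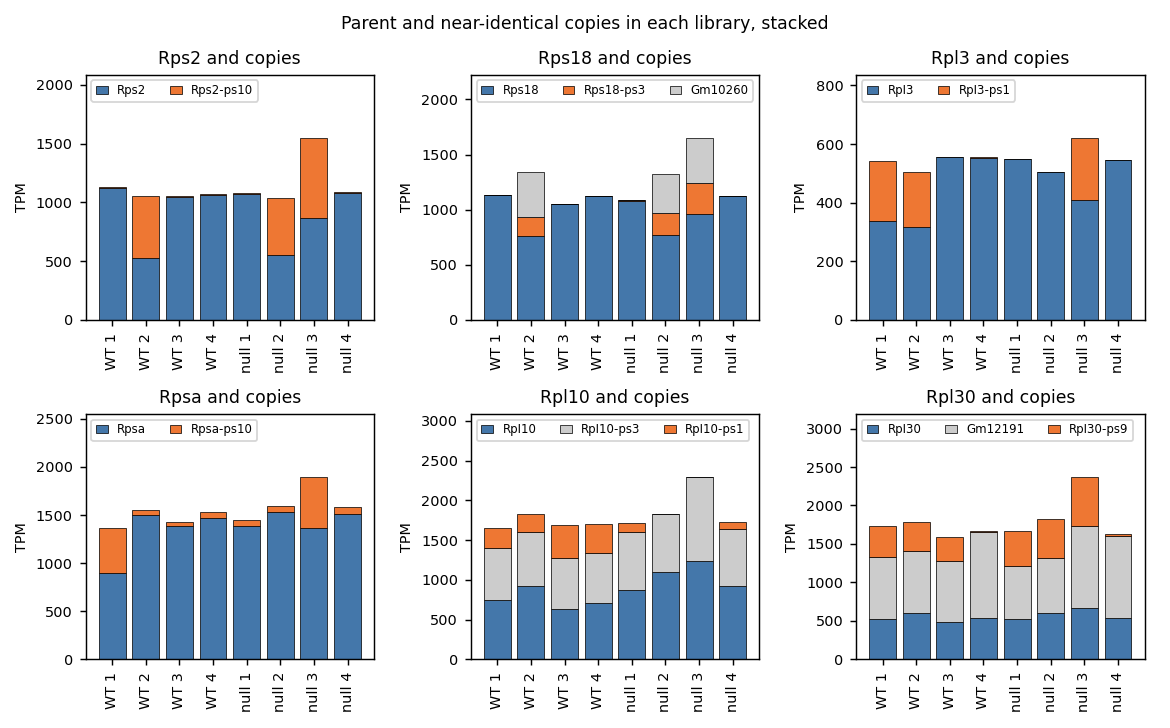
TPM of 6 parent genes (blue) stacked with near-identical copies (grey and orange) in each of the 8 libraries, 1 bar a library. Where an orange segment is large the blue or grey one is mostly smaller. An exception is null replicate 3 in the Rpl30 panel, where Rpl30-ps9 and Rpl30 are both at their highest, 635 and 671 TPM. Apart from null replicate 3 the bars of Rps2, Rpl3 and Rpl10 differ little in total height, with 1.09, 1.10 and 1.10-fold spreads.

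Null replicate 3 had the largest summed level of these pseudogenes. Their sum was 25979, 27921, 23828 and 24937 TPM in WT and 24426, 26867, 36119 and 24246 TPM in null, which is 2.38 to 2.79% of each of the other 7 libraries and 3.61% of null replicate 3. Without Rpl38-ps2 the sum was 24378 TPM there and 15815 to 19045 TPM in the other 7. The 36 parents did the same, with 41260 TPM there and 29099 to 32393 TPM in the other 7. The ratio of the 2 sums was 0.875 in null replicate 3 and 0.782 to 0.865 in the others.

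Of the 61 pseudogenes, 33 (54.1%) had their highest value in null replicate 3, against 11.5% of all 13910 genes tested. The share was 83.3% for the 36 parents and 87.7% for 81 cytosolic ribosomal protein genes. It was 14.3% for 63 pseudogene symbols of other genes at the same minimum level, and 19.7% for 882 genes of other pseudogene biotypes. Of listed translation factors 15 of 29 were highest there, and of ribosome biogenesis genes 7 of 22. For each gene the level in null replicate 3 was divided by the median of the other 7 libraries, on the TPM + 1 scale. The median of these ratios was 1.33 over the pseudogenes, 1.39 over the parents and 0.815 over all genes tested. With the libraries scaled by the median ratio of genes, 38 of the 61 pseudogenes (62.3%) were highest in null replicate 3 against 26.6% of all genes. Since this library was named when the genes were chosen, these counts are a description. In the same library cytosolic ribosomal protein genes held 11.3% of all TPM against 7.80 to 8.78% elsewhere, all pseudogene biotypes 25.0% against 17.7 to 19.1%, and the part of these in the result was not tested.

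The single lowest value lay in null replicate 3 for 2 of the 61 pseudogenes, Rps27a-ps2 and Rpl9-ps7. Rps27a-ps2, a copy of a gene whose product is ubiquitin fused to a small-subunit protein, measured 256, 243, 268 and 202 TPM in WT and 247, 204, 30.7 and 259 TPM in null. Its parent Rps27a was at 1054 TPM in null replicate 3 and 458 to 665 TPM elsewhere. The genes whose log2(TPM + 1) in null replicate 3 lay farthest above the median of the other 7 libraries were Rpl3-ps1 by 7.72, Rps18-ps3 by 6.79, Rps2-ps10 by 6.12, Rpl17-ps9 by 3.69 and Rpl15-ps2 by 3.61. Farthest below were Rpl10-ps1 at -7.66, Rpl23a-ps3 at -6.14, Rps27a-ps2 at -2.97, Rpl17-ps10 at -2.38 and Rpl9-ps4 at -2.22. All of these but Rps27a-ps2 belong to the 14 genes that differed 10-fold or more between libraries, and for each of the 5 upper genes at least 1 other library was also high.

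**Figure D4:**
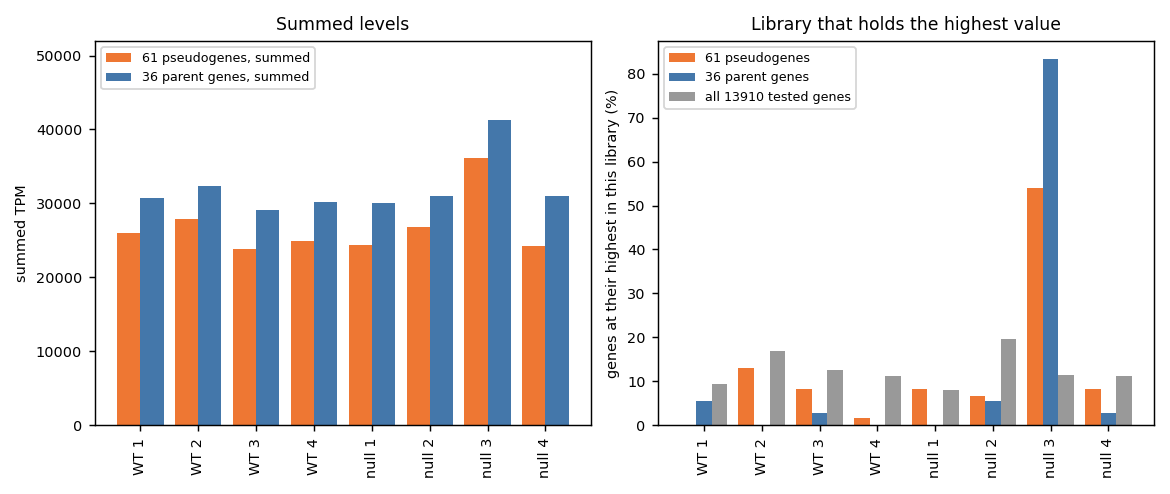
Left, summed TPM of the 61 pseudogenes (orange) and of their 36 parents (blue) in each library. Right, percent of genes whose highest value of the 8 lies in that library, for the pseudogenes, the parents and all 13910 genes tested (grey). Null replicate 3 has the tallest bars, 36119 and 41260 TPM on the left, and 54.1% and 83.3% against 11.5% on the right.

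Loss of Mir324 was tested by limma on log2(TPM + 1) over every gene with at least 1 TPM in 4 or more libraries, with Benjamini-Hochberg adjustment over all 13910. Of the 61 pseudogenes 54 entered the test. The 7 left out were Rps15a-ps8, Rpl15-ps2, Rpl30-ps8, Rpl38-ps1, Rpl36-ps10, Rpl7a-ps11 and Rps12-ps10. None of the 54 passed an adjusted p of 0.05 (0 of 54, smallest adjusted p = 0.981 by limma), where 0.0216% of all genes tested did. At an unadjusted p under 0.05 there were 2 of 54, against 4.15% of all genes. The 4 null values lay wholly apart from the 4 WT values in 3 of the 54, against 2.68% of all genes.

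Those 3 genes were Rpl9-ps7 and Rpl10-ps1, lower in every null library, and Rpl10-ps3, higher in every null library. Rpl9-ps7 copies the gene of a large-subunit protein. It measured 73.3, 117, 56.8 and 82.0 TPM in WT and 28.3, 47.9, 25.7 and 39.2 TPM in null. The group means were 82.2 ± 25.3 and 35.3 ± 10.3 TPM (SD, n = 4 each), a log2 difference of -1.19 with a 95% interval of -1.80 to -0.58 (adjusted p = 0.981 by limma). Rpl9-ps7 has 62 words of its own and shares 83.1% of its words with Rpl9. Without null replicate 3 the difference was -1.06. The parent's log2 difference was 0.17, and that of the sum of Rpl9 and all its listed -ps copies was 0.10, or 0.08 and 0.02 without null replicate 3.

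Rpl10-ps1 showed the lowest fitted difference of the 54. Its parent Rpl10 codes for a protein that joins the large subunit late in its assembly. Rpl10-ps1 measured 258, 226, 409.6 and 371 TPM in WT and 115, 0.0747, 0.12 and 88.3 TPM in null. Every null library was below every WT library, and null replicates 2 and 3 were near 0. Rpl10-ps1 has 0 words of its own and shares 100% of its words with Rpl10. Its listed level therefore rests on how shared reads were divided. The means were 316 ± 88.0 and 50.8 ± 59.5 TPM (SD, n = 4 each), a log2 difference of -4.87 with an interval of -8.57 to -1.16 (adjusted p = 0.981 by limma). Without null replicate 3 it was -3.79, and with a pseudocount of 0.1 it was -6.11.

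The other genes of the Rpl10 family lay in the opposite direction. Rpl10-ps3, which holds all the words of Rpl10-ps1, measured 649.7, 679, 644 and 623 TPM in WT and 727, 733, 1046 and 714 TPM in null, a log2 difference of 0.29, or 0.16 without null replicate 3. Rpl10 itself measured 748, 923, 637 and 708 TPM in WT and 875, 1099, 1241 and 924 TPM in null, a log2 difference of 0.46 with an interval of 0.09 to 0.82 (adjusted p = 0.981 by limma), or 0.36 without null replicate 3. The sum of Rpl10 and all its listed -ps copies was 1723 ± 74.6 TPM in WT and 1894 ± 268 TPM in null (SD, n = 4 each). That sum differed by 0.13 on the log2 scale with an interval of -0.14 to 0.39, and by 0.03 without null replicate 3. Rpl10-ps1 and Rpl9-ps7 are both annotated on chromosome 2, at chr2:105554201-105554845 and chr2:70458982-70459560 (GRCm38). Of the 61 pseudogenes 6 are on that chromosome. Rps6-ps4, at chr2:75191073-75191822 between them, had overlapping groups and a log2 difference of 0.11. Rps15a-ps7 and Rpl5-ps2, also on it, had overlapping groups and differences of 0.16 and 0.18, and Rps12-ps10 did not enter the test. Any part of position was not tested.

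After these 3 the smallest p-values belonged to Rpl17-ps5 and Rpl23a-ps3. Rpl17-ps5 measured 125, 137, 88.3 and 107 TPM in WT and 131, 154, 257 and 104 TPM in null, with a log2 difference of 0.43 and overlapping groups. Without null replicate 3 the difference was 0.18. Rpl23a-ps3 copies the gene of a protein at the exit of the peptide tunnel, and its log2 difference was -2.86 with an interval of -7.37 to 1.66. It was -3.71 with a pseudocount of 0.1, -2.06 without null replicate 3, and between -4.61 (without WT replicate 2) and -2.05 (without WT replicate 4) over the left-out libraries. For the most abundant copy, Rpl38-ps2, the means were 8498 ± 394 and 9223 ± 1700 TPM (SD, n = 4 each), a log2 difference of 0.10 with an interval of -0.20 to 0.41, and -0.02 without null replicate 3.

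**Figure D5:**
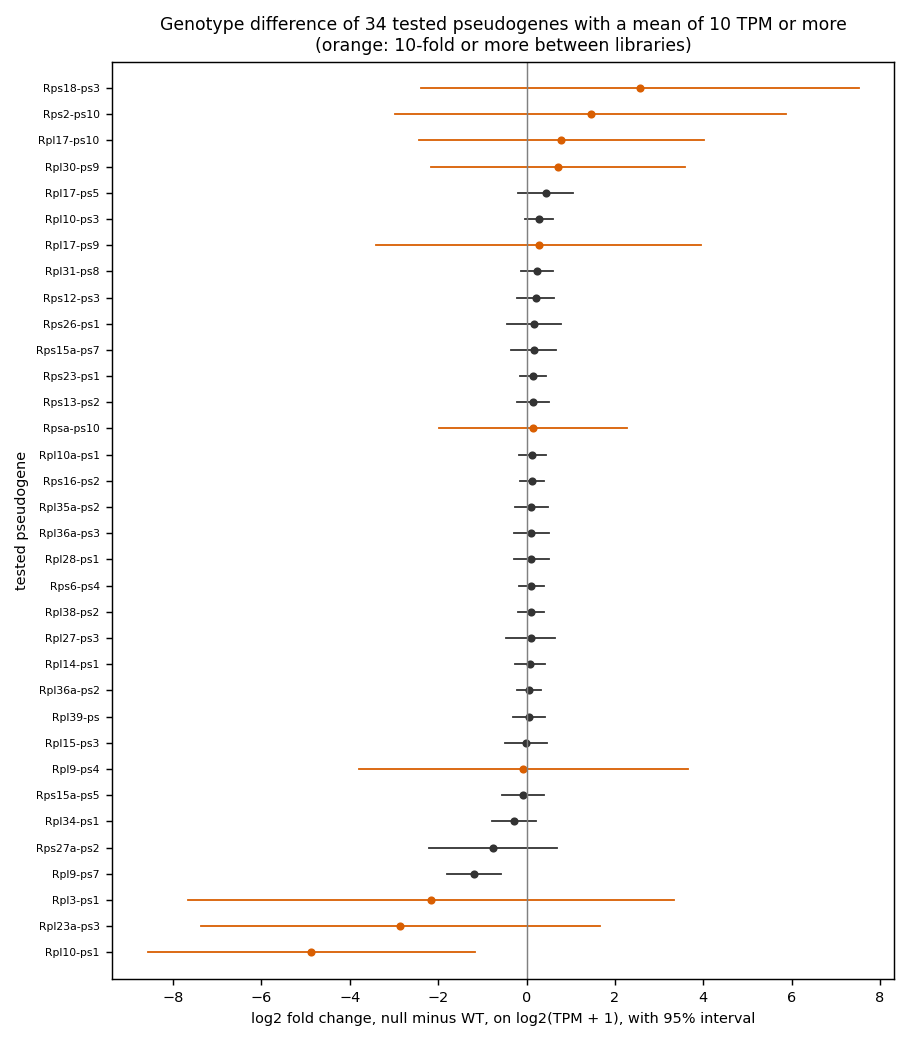
Log2 fold change, null minus WT, on the log2(TPM + 1) scale with the 95% interval from limma for the 34 tested pseudogenes with a mean of 10 TPM or more, ordered by value. Orange marks the tested genes that differed at least 10-fold between libraries. Their intervals are the widest, which follows from choosing them by that spread. Rpl9-ps7 at -1.19 and Rpl10-ps1 at -4.87 have intervals that do not reach 0.

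Of the 54 tested pseudogenes 38 had a positive and 16 a negative log2 difference, with a median of 0.11 against -0.05 over all genes tested, of which 5551 were positive and 8359 negative. Without null replicate 3, 27 of 51 were positive and their median was 0.00, against 0.02 over all genes tested. The interval lay within 1 log2 unit of 0 on both sides for 27 of the 54, against 11119 of the 13910 genes tested. It did so for 20 of the 22 genes at 100 TPM or more that were not among the 14 varying ones, and for 0 of the 11 varying ones that were tested. The 14 were picked for a wide spread over these same libraries, so the wide intervals of the varying ones follow from that choice. Summed over all 61 pseudogenes, the level was 25666 ± 1741 TPM in WT and 27914 ± 5599 TPM in null (SD, n = 4 each), a log2 ratio of 0.12. Without null replicate 3 the null mean was 25179 ± 1464 TPM (SD, n = 3) and the log2 ratio -0.03. The ratio of summed pseudogenes to summed parents was 0.838 ± 0.0197 in WT and 0.834 ± 0.0442 in null (SD, n = 4 each).

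The parents and the family sums gave no call by genotype either. Among the 36 parents 0 passed the limma adjusted p of 0.05 and 1, Rpl10, had an unadjusted p under 0.05. Of the 36, 32 were positive with a median log2 difference of 0.12, and 17 were positive without null replicate 3. When each parent and all its listed copies were replaced by their sum, 0 of 36 sums passed, against 0.0217% of all genes in that table, and 0 had an unadjusted p under 0.05. Only copies with -ps symbols entered these sums, so Gm12191, Gm10260, Gm10020 and Rps12l1 were outside them. How reads were divided with such genes can still affect the sums. The sums had 34 positive values and a median of 0.12, and 17 positive values without null replicate 3. In the same limma fit 0 of the 81 cytosolic ribosomal protein genes passed, 1 had an unadjusted p under 0.05 and 72 were positive, with a median of 0.14. Of the 29 translation factors 0 passed, 0 had an unadjusted p under 0.05 and 20 were positive. The 22 ribosome biogenesis genes gave 0, 0 and 18 for the same counts. The counts of these lists were taken only with null replicate 3 included. That library held the highest value of 71 of the 81, 15 of the 29 and 7 of the 22 genes. Among 56 tested pseudogene symbols of other genes 0 passed, 4 had an unadjusted p under 0.05 and 21 were positive, with a median of -0.10.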

How the data were processed

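The authors deposited 1 table of gene-level values in TPM, described in it as length-scaled, with 1 column for each library. Per the submitters' processing notes kallisto and DESeq2 were used, with no role or version, and the build named there is GRCh38 although the gene identifiers are mouse. For annotation, strand setting and RNA selection the sources used here give nothing. Each column sums to 1000000 when a repeated identifier is counted once, and 273 identifiers repeated over 813 rows were counted once. The values hold no read counts, so depth is unknown and no counting interval is given. The null replicate 3 column was deposited in the same unit as the others, as its sum shows.

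Members and gene lists were chosen with earlier results of these data known. Named genes were those past the genotype threshold, the 10 with the highest mean, the 5 with the smallest limma p, the 5 highest and 5 lowest in null replicate 3 relative to the others, 3 on each side of the level limit (some are not reported here) and all members of the 3 largest families (a tie for the third place brought in 5). A parent is the symbol without -ps and its number. Genotype was tested with limma 3.58.1 in R 4.3.3 (trend on log2(TPM + 1), no other covariate, genes at 1 TPM or more in at least 4 libraries, Benjamini-Hochberg at 0.05), and the fit was tested on simulated data. Sequences and annotation came from GENCODE M21 (GRCm38), matched by identifier for all 61, with biopython 1.88 for local alignment to the parent transcript. This annotation may differ from the authors', so word counts describe M21 transcripts. The genotype test was repeated with libraries scaled by median ratios, with 0.1 as pseudocount, without the low-value filter, with a filter at a mean of 1 TPM, with a replicate block and without each library in turn.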

Additional observations from a re-analysis of the deposited data

Results flagged for a closer look

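Within each genotype, 146 sets of 4 values were screened for a library set far apart from the other 3 (Dixon's gap over range, at its 95% critical value), and 33 were found. Chance gives about 1 in 20 for independent sets of normally distributed values. These sets share the same libraries and include parents and sums beside the copies, so the count of 33 cannot be judged against that rate. A set in which 3 values are equal is flagged however small the gap to the other value. Of the 33, 12 were high values in null replicate 3. These were Rpl31-ps8 at 2645 TPM, Rps23-ps1 at 2158 TPM, Rpl35a-ps2 at 1537 TPM, Rps13-ps2 at 1301 TPM, Rps16-ps2 at 1145 TPM, Rpl10-ps3 at 1046 TPM, Rpsa-ps10 at 526 TPM, Rpl3-ps1 at 210.1 TPM, Rpl36-ps3 at 13.98 TPM, Rps24-ps3 at 5.10 TPM, Rpl31-ps16 at 1.59 TPM and the summed parents at 41260 TPM.

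In WT replicate 2 the high values were Rps12-ps3 at 941 TPM, Rps2-ps10 at 529 TPM, Rps18-ps3 at 168 TPM, Rpl9-ps4 at 66.3 TPM, Rpl38-ps1 at 10.1 TPM and Rps12-ps10 at 1.72 TPM, while the parent Rps2 was low at 526 TPM. In WT replicate 1 Rpsa-ps10 at 463 TPM, Rpl15-ps2 at 15.4 TPM and Rpl36-ps10 at 3.87 TPM were high and Rpl15-ps3 at 295 TPM was low. In WT replicate 3 Rpl31-ps8 at 1459 TPM and Rpl35a-ps2 at 904 TPM were low and Rpl30-ps8 at 0.473 TPM was the only value above 0. In WT replicate 4 Rps15a-ps8 at 47.2 TPM and Rps12-ps9 at 2.67 TPM were high.

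In null replicate 1 Rpl23a-ps3 at 69.5 TPM, Rps15a-ps8 at 58.8 TPM and Rps15a-ps3 at 8.98 TPM were high. In null replicate 2 Rpl9-ps4 at 36.7 TPM was high, and in null replicate 4 Rpl36-ps10 at 5.05 TPM was the only value above 0.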

How the results depend on the processing

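No pseudogene, parent or family sum was called by genotype under any alternative run (limma, 0 called in each). The count over all genes, 3 in the report's test, was 5 with a pseudocount of 0.1, 0 with no filter on low values and 0 with a mean of 1 TPM as filter. Leaving out single libraries gave 0 to 6 calls over all genes, with 6 without WT replicate 2, 1 without WT replicate 3 and 0 without WT replicate 4. The cause was not tested. The log2 difference of Rpl38-ps2 ran from -0.0191 to 0.1584 over the left-out libraries and turned negative, at -0.0191, only without null replicate 3. With the replicate block 0 of 54 pseudogenes and 0 of all genes were called. The correlations of deviations for same-numbered samples were -0.04, 0.11, -0.05 and 0.11 for numbers 1 to 4, so the numbers were not taken as pairing the animals. The log2 difference of Rpl9-ps7 ranged from -1.35 to -1.01 that of Rpl10-ps1 from -6.02 to -3.77, that of Rpl17-ps5 from 0.18 to 0.61 and that of Rpl23a-ps3 from -4.61 to -2.05 over the left-out libraries. Depth is unknown, so levels near 1 TPM carry an error that the table does not show. For the 20 pseudogenes without a word of their own, levels can rest on how shared reads were divided. To what extent they do was not tested.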
